A study of Mus musculus with 4 samples.

Results

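Class I and class II antigen presentation is described here through 35 genes, taken as a fixed list of pathway members and all present among the 32285 genes of the RNA matrices. The list holds 23 genes of the class I pathway and 12 of the class II pathway, and was chosen with earlier results of these data known. The cells came from chimeric tumours in wild-type B6 hosts of the Thy1.2 allele. The hosts had received transferred Pmel-1 T cells of the Thy1.1 allele, polarised to Tc1 in the first group and to Tc9 in the second. Pmel-1 denotes a transgenic CD8 receptor against gp100, a melanocyte protein, while Tc1 names the interferon-gamma type and Tc9 the interleukin-9 type of CD8 effector. The treatment labels name adjuvant. From each group the tumours of 3 mice, taken on day 30 after tumour inoculation, were pooled, CD4 T cells were sorted, and 1 single-cell RNA library was sequenced, called Tc1 and Tc9 below. With 1 library per group there was no replicate and no test. Intervals are at 95% and cover counting error alone (exact Poisson for levels, exact binomial for shares, exact conditional for ratios).

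Class I molecules consist of a heavy chain and beta-2-microglobulin, encoded by B2m, and carry peptides of cytosolic proteins to CD8 T cells on nearly all nucleated cells. The immunoproteasome cuts the peptides, the Tap1 and Tap2 transporter moves them into the endoplasmic reticulum, and the chaperones tapasin, calreticulin, calnexin and Pdia3 help to load them, with Nlrc5 as transcriptional regulator. Class II molecules carry peptides from endosomes to CD4 T cells, mainly on dendritic cells, macrophages and B cells. Cd74, the invariant chain, guides them there, cathepsin S trims it, H2-DM exchanges its remnant for peptide, H2-DO restrains H2-DM, and Ciita is the master regulator of the whole set. Mouse T cells are not known to make class II molecules.

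Of the 35 members, 21 lie on chromosome 17, which holds the major histocompatibility complex. RefSeq promoter sequences of GRCm38.p6, the build of the files, were found for 30 of the 35. In each, the 250 bases before the start were searched on both strands for 5 short motifs. The windows of 6 members are printed as examples of the roles described below (an alpha and a beta chain of class II, a chain of H2-DO, a classical heavy chain, the light chain and the transporter). Capitals mark the matches.
H2-Aa, chr17:34287824-34288073, minus strand: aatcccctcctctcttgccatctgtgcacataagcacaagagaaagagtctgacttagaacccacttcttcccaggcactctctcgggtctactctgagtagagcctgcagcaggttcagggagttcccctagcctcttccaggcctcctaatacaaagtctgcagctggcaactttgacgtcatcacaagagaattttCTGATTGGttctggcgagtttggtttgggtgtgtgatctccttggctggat
H2-Eb1, chr17:34305617-34305866, plus strand: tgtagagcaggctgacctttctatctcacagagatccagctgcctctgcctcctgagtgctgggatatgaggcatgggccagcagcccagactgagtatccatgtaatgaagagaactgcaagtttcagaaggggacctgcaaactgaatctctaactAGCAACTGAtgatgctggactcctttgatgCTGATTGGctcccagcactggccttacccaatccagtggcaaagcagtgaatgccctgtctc
H2-Oa, chr17:34092129-34092378, plus strand: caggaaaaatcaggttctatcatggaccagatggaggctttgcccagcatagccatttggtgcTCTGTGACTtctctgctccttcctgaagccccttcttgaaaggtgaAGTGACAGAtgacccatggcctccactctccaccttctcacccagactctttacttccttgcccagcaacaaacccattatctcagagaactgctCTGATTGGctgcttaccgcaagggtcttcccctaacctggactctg
H2-D1, chr17:35262844-35263093, plus strand: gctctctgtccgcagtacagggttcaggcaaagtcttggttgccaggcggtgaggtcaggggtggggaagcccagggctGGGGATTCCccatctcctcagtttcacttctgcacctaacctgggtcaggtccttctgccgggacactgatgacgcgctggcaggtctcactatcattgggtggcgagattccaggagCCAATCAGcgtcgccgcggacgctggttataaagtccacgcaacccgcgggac
B2m, chr2:122147437-122147686, plus strand: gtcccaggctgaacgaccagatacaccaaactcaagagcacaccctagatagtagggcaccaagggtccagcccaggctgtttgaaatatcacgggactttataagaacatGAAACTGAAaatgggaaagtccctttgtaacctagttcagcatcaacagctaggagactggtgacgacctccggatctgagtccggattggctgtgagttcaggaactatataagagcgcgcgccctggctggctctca
Tap1, chr17:34187306-34187555, plus strand: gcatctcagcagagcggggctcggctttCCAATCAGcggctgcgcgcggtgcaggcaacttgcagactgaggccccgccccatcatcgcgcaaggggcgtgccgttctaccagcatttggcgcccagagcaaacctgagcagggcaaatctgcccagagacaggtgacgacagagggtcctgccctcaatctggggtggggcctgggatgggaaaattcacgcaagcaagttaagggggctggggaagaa

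The Y box letters CTGATTGG were present in 3 of 10 class II members (H2-Aa, H2-Eb1 and H2-Oa) and in 7 of 20 class I members (H2-D1, H2-Q6, H2-Q7, H2-T23, Tap1, Psmb9 and Canx), against 3.83% of all 32851 windows of this length. The enhancer A letters GGGGATTCC were present in H2-K1, H2-D1, H2-Q6 and H2-Q7, which are 4 of 20 class I members, and in 0 of 10 class II members, against 0.213% of all windows. The X box core letters AGNNACNGA were common, in 14.7% of all windows, and were present in H2-Eb1, H2-DMb1, H2-Oa, H2-M3 and Psmb10. The interferon response letters GAAANNGAA were present in B2m, H2-T22, H2-T23, Erap1 and Ctss (7.13% of all windows), and the gamma-activated letters TTCNNNGAA in H2-M3, Psmb8 and H2-DMb2 (7.02%). Tap1 and Psmb9 are transcribed away from each other across 225 bases, so the window printed for Tap1 covers the start of Psmb9 and both genes share its Y box letters. No match printed here overlaps another. The matches describe letters and not binding sites.

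The Tc1 library held 13406 barcodes and 106053410 unique molecular identifiers (UMIs), of which 11933 barcodes were kept, and the Tc9 library 8449 barcodes and 50713493 UMIs, of which 8204 were kept. The libraries shared 148 barcode sequences. Cells were gated on lineage markers that include no member gene, and 1070 barcodes in Tc1 and 64 in Tc9 with markers of more than 1 lineage were left out. Although CD4 T cells were sorted, the CD4 T gate held 11.7% of kept barcodes in Tc1 and 52.8% in Tc9. Tc1 held at least 20 barcodes in 14 gates: 2327 macrophages, 2301 CD8 T cells, 1394 CD4 T cells, 1161 monocytes, 270 melanoma cells, 77 neutrophils, 61 Cd209a dendritic cells, 50 NK cells, 49 plasmacytoid dendritic cells, 41 fibroblasts, 39 endothelial cells, 35 Ccr7 mature dendritic cells, 25 B cells and 23 Xcr1 or Clec9a dendritic cells. Tc9 reached 20 barcodes in 6 of them: 4333 CD4 T cells, 454 CD8 T cells, 69 fibroblasts, 51 NK cells, 36 macrophages and 22 endothelial cells. Its 34 barcodes in the 3 conventional dendritic gates (19 Cd209a, 12 Ccr7 mature and 3 Xcr1 or Clec9a) were pooled. Levels are counts per 1e6 UMIs of the gate (CPM). A UMI marks the end of 1 molecule, so levels need no division by gene length.

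The class II chains H2-Aa, H2-Ab1 and H2-Eb1 separated professional antigen-presenting cells from all other gates of the Tc1 library. Their summed level was 32714 CPM in Xcr1 or Clec9a dendritic cells, 25442 in Cd209a dendritic cells, 18548 in Ccr7 mature dendritic cells, 13068 in B cells, 9064 in macrophages, 7144 in plasmacytoid dendritic cells and 4995 in monocytes. It was 2184 CPM in CD4 T cells, 1333 in CD8 T cells, 1195 in NK cells, 977 in fibroblasts, 861 in neutrophils, 352 in endothelium and 144 in melanoma cells. The 7 antigen-presenting gates therefore stood above all 7 others. The 8 class I heavy chains covered a much narrower span, from 10033 CPM in plasmacytoid dendritic cells, 8969 in Ccr7 mature dendritic cells, 8255 in NK cells, 7386 in CD4 T cells and 6642 in CD8 T cells down to 3385 in monocytes, 2951 in fibroblasts and 665 in melanoma cells. Melanoma cells stood apart at the bottom of this order.

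Class II chains exceeded class I heavy chains in 6 of 14 gates. The log2 ratio of class II to class I was 2.93 (2.85 to 3.01) in Xcr1 or Clec9a dendritic cells, which are the cross-presenting type, and 2.58 (2.53 to 2.64) in Cd209a dendritic cells. It was 1.27 in B cells, 1.05 in Ccr7 mature dendritic cells, 1.02 in macrophages and 0.56 in monocytes. Plasmacytoid dendritic cells, known as interferon producers, lay on the class I side at -0.49 (-0.56 to -0.42) through the highest heavy chain level of any gate. The other gates ran from -1.59 in fibroblasts and -1.76 in CD4 T cells through -2.21 in melanoma, -2.27 in neutrophils, -2.32 in CD8 T cells and -2.79 in NK cells to -3.77 in endothelium.

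**Figure D1:**
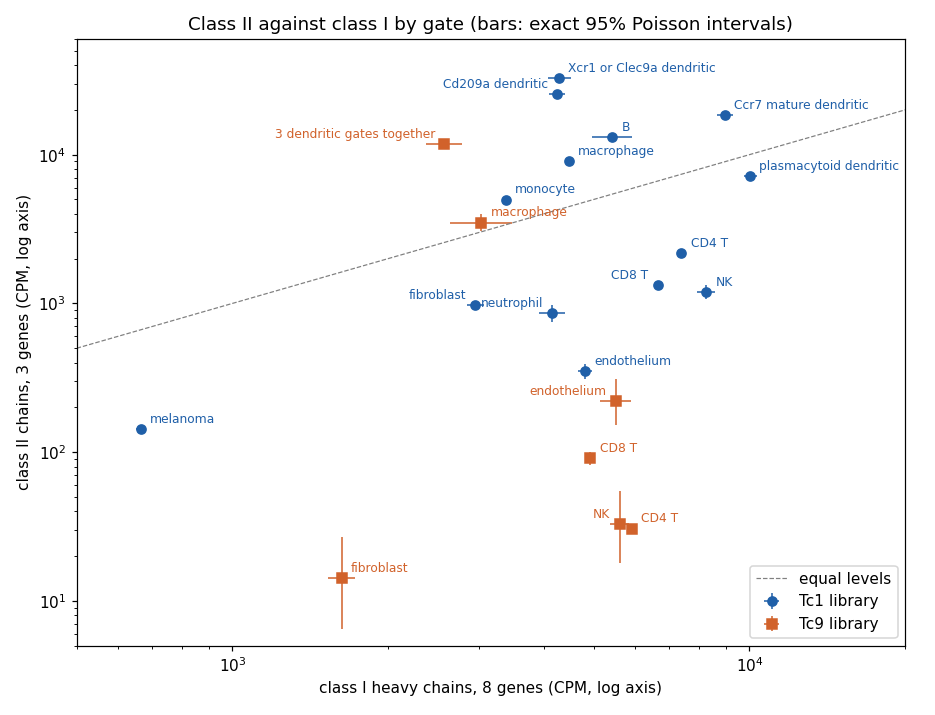
Summed CPM of the 8 class I heavy chains (horizontal, log axis) against the 3 class II chains (vertical, log axis) for each gate with at least 20 barcodes, Tc1 as circles and Tc9 as squares, with exact 95% Poisson intervals and the line of equal levels. In Tc1, 6 gates lie above the line, and the lymphocyte and fibroblast gates of Tc9 lie far below their Tc1 counterparts on the class II axis.

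In the gates with low class II levels the UMIs sat in few barcodes. In Tc1 CD4 T cells the 70 barcodes with most class II UMIs (5% of 1394) held 85.1% of them, and the median barcode had 1 such UMI against a mean of 13. The share held by the highest 5% of barcodes was 87% in CD8 T cells, 83.9% in fibroblasts, 82.5% in neutrophils, 77.3% in NK cells, 75% in melanoma and 57.8% in endothelium. In NK cells 1 of 50 barcodes held 68.8%, and in neutrophils 1 of 77 held 53%. In the gates of dendritic and B cells the same share was 17.5% to 26%, in macrophages 35.1% and in monocytes 37.8%. For class I heavy chain UMIs the share was 12.2% to 27.2% over all 14 gates. It was above the class II share in Xcr1 or Clec9a dendritic cells (22.3%), Cd209a dendritic cells (21.5%) and B cells (26.7%).

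**Figure D2:**
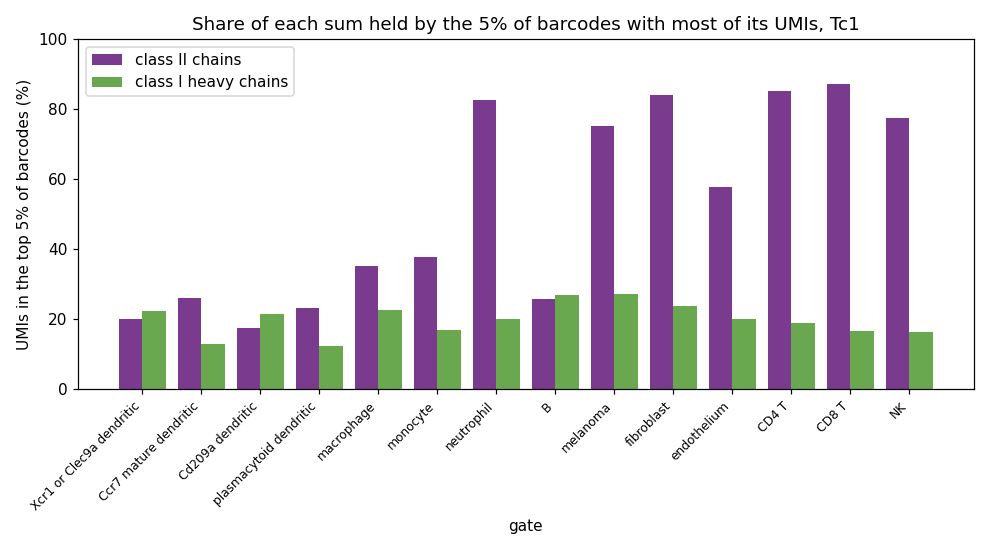
Percent of a gate's UMIs held by the 5% of its barcodes with most of them (vertical, starting at 0), for class II chains and class I heavy chains in the 14 gates of Tc1. The class II bars exceed 57% in all 7 gates from neutrophils and melanoma to NK cells and stay under 38% in the antigen-presenting gates.

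Thinned to 2000 UMIs per barcode, 37.2% (34.6 to 39.9) of Tc1 CD4 T cells had a class II chain UMI and 33.6% had a UMI of the myeloid gene Lyz2. The class II share was 27.9% in CD8 T cells, 34.7% in NK cells, 29.7% in fibroblasts, 26.3% in endothelium and 12.4% in melanoma. Mouse T cells are not known to make these chains, and the source of the 37.2% in CD4 T cells was not tested. The shares of fibroblasts, endothelium and melanoma were lower than this, and whether they reflect expression was not tested either. Without thinning the shares were 54.5% in CD4 T cells, 70.7% in fibroblasts, 71.8% in endothelium and 56.7% in melanoma, with median depths of 3815, 19904, 16473 and 51931 UMIs. By contrast, all 23 Xcr1 or Clec9a and all 61 Cd209a dendritic barcodes had a class II chain UMI after thinning, as did 91.2% of Ccr7 mature dendritic cells, 79.6% of macrophages and 62.5% of monocytes. Ciita followed the same line, with a UMI in 42.6% of thinned Cd209a dendritic cells, 6.79% of macrophages, 1.75% of CD4 T cells and 0 of 218 melanoma barcodes. The interval of the melanoma share reached up to 1.68%. Without thinning, 3.70% of melanoma barcodes had a Ciita UMI.

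**Figure D3:**
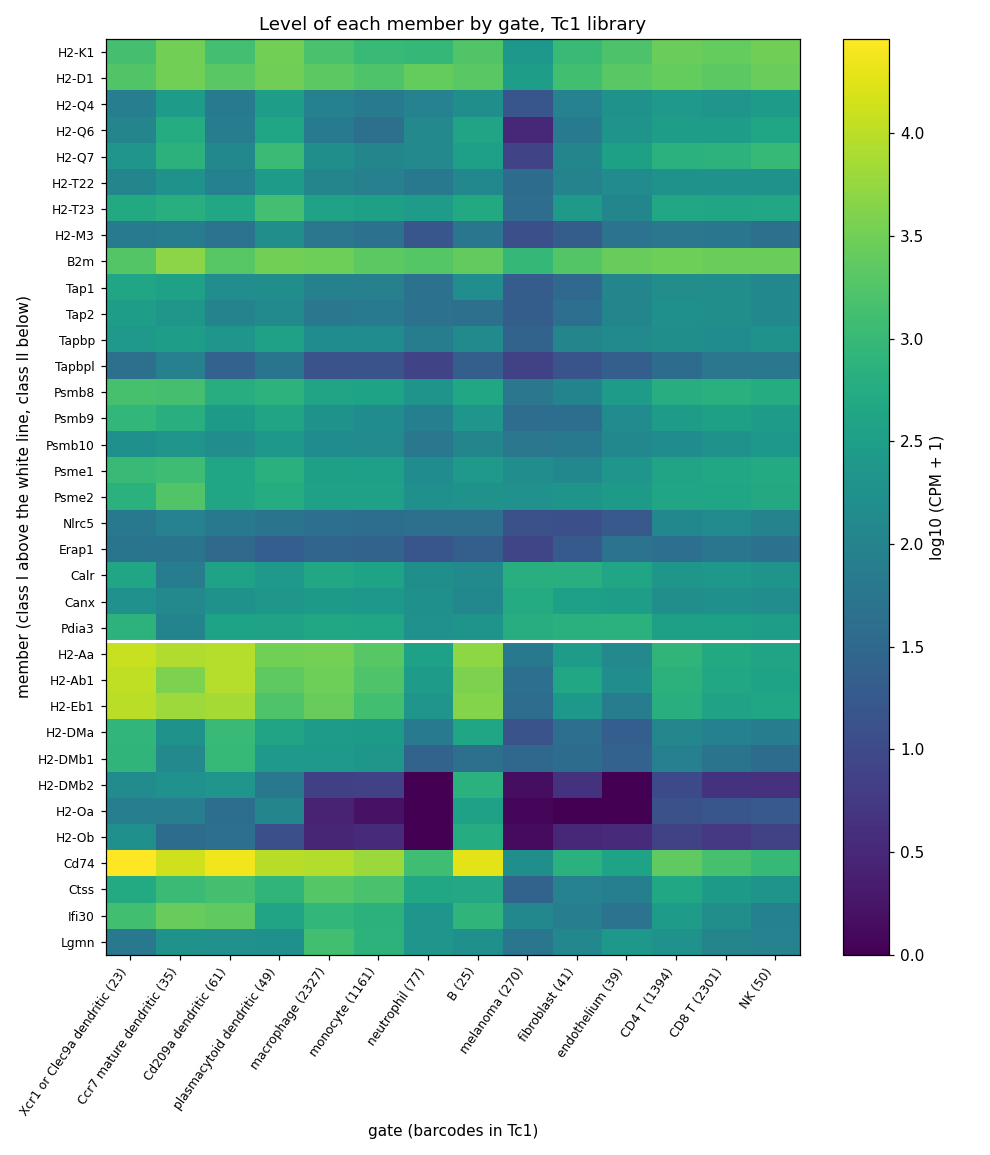
Level of each of the 35 members (rows) in the 14 gates of the Tc1 library (columns, barcodes in brackets) as log10 of CPM + 1. The class I rows are bright in nearly all columns except melanoma, while the class II rows are bright in the dendritic, B, macrophage and monocyte columns.

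Among the class I heavy chains, the classical genes H2-K1 and H2-D1 made up most of the UMIs in every gate. H2-K1 stood at 3294 CPM in plasmacytoid dendritic cells, 3193 in Ccr7 mature dendritic cells, 3132 in NK cells and 2870 in CD4 T cells, against 1040 in fibroblasts, 920 in neutrophils and 236 in melanoma. H2-D1 ran from 3277 CPM in Ccr7 mature dendritic cells to 318 in melanoma. H2-T23, which encodes Qa-1, a ligand of NK receptors, was highest in plasmacytoid dendritic cells at 1356 CPM, above the 627 of the next gate, and lowest in melanoma at 39. H2-Q6 and H2-Q7, Qa-2 family genes, reached 583 CPM in Ccr7 mature dendritic cells and 1090 in plasmacytoid dendritic cells and were 2.22 and 7.33 CPM in melanoma. Reads of H2-Q6 and H2-Q7 can be split between near-identical copies, so their separate levels are uncertain. B2m ranged from 4798 CPM in Ccr7 mature dendritic cells to 935 in melanoma.

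Melanoma cells showed the lowest level for the whole classical class I set but not for the general chaperones. In the melanoma gate 34.9% of barcodes thinned to 2000 UMIs had an H2-K1 UMI, against 97.9% of CD4 T cells and 64.9% of fibroblasts. The heavy chains were uneven among melanoma barcodes, with 10% of barcodes under 45.9 CPM, a median of 534 CPM and 10% over 1862 CPM. Because the median melanoma barcode was deep at 51931 UMIs, the median number of heavy chain UMIs was still 21.5, against 33 in CD4 T cells. Canx, a chaperone of glycoproteins in general, was higher in melanoma (552 CPM) than in any other gate, and Calr (631 CPM) was level with fibroblasts (626 CPM).

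The peptide supply genes peaked in the conventional dendritic gates. Tap1 was 442 CPM and Tap2 317 CPM in Xcr1 or Clec9a dendritic cells, against 353 and 230 in Ccr7 mature dendritic cells, 159 and 170 in CD4 T cells and 19 and 20 in melanoma. The immunoproteasome subunits Psmb8 and Psmb9 followed, at 1423 and 896 CPM in Xcr1 or Clec9a dendritic cells and 58.8 and 37.6 CPM in melanoma. Psme2, a subunit of the proteasome activator PA28, was highest in Ccr7 mature dendritic cells at 1762 CPM, above the 694 CPM of Xcr1 or Clec9a dendritic cells. Psmb10, the third immunoproteasome subunit, was flatter, from 238 CPM in NK cells to 58.6 in melanoma. Nlrc5 was highest in CD8 T cells at 139 CPM and CD4 T cells at 120, above all dendritic gates (51.5 to 92.4 CPM). Erap1, which trims peptides in the endoplasmic reticulum, was 55.6 CPM in CD8 T cells and 7.66 in melanoma.

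The class II accessory genes did not all follow the chains. Cd74 did, at 28786 CPM in Xcr1 or Clec9a dendritic cells, 22740 in Cd209a dendritic cells, 18545 in B cells and 8897 in macrophages. H2-DMa and H2-DMb1, the subunits of H2-DM, were highest in Cd209a dendritic cells at 1056 and 960 CPM, and Ccr7 mature dendritic cells had only 188 and 123. In B cells H2-DMa was 434 CPM while H2-DMb1 was 43.4 and its paralogue H2-DMb2 was 716. H2-Oa and H2-Ob, the subunits of H2-DO, were likewise highest in B cells at 358 and 575 CPM, with 110 and 173 as the next highest gates. In macrophages H2-Oa was 1.76 CPM and H2-Ob 2.02.

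Of the endosomal proteases and the reductase, Ctss (cathepsin S) and Lgmn (legumain) were highest in macrophages at 1906 and 1300 CPM. Lgmn stood at 62.4 CPM in Xcr1 or Clec9a dendritic cells, lower than in all gates but melanoma (54.9 CPM). Ifi30, the thiol reductase GILT, was highest in Ccr7 mature dendritic cells at 2602 CPM and stood at 2320 CPM in Cd209a dendritic cells. These 3 genes therefore peaked in gates that were not the highest for the class II chains.

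Levels also varied within gates. In Ccr7 mature dendritic cells the class II chains had a median of 11100 CPM, with 10% of barcodes under 1053 and 10% over 38179, while for the heavy chains these bounds were 4979 and 13529 CPM. In macrophages 13.5% of barcodes had no class II chain UMI, the median was 2053 CPM and 10% had over 22773 CPM. The 323 macrophages with a UMI of Cxcl9 or Cxcl10, interferon-gamma-induced chemokines, and none of Mmp12 had 12874 CPM of class II chains, 5420 of heavy chains and 51.7 of Ciita. The 467 with Mmp12 and neither chemokine had 4331, 3323 and 14.2 CPM. The 1465 with none of these had 9362 and 4549 CPM for chains of class II and class I. The 2 marker-defined subsets also differed in depth, with median UMIs of 8575 and 4539, and the part of depth in these differences was not tested. Within the macrophage gate the levels of class I and class II per barcode had a Spearman correlation of 0.43 over 1915 barcodes of 1 library, and within monocytes of 0.44 over 1111.

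Across the 14 gates of Tc1 the pathway's regulators split. Ciita was 241 CPM in Cd209a and 227 in Xcr1 or Clec9a dendritic cells, 70 in Ccr7 mature dendritic cells, and had no UMI in NK cells. The other 7 class II regulators listed were low in every gate, the highest being Creb1 at 108 CPM in B cells, Nfya at 70 CPM in Ccr7 mature dendritic cells and Nfyb at 54.2 CPM in B cells. Of the further endosomal genes, the cystatin gene Cst3 was 28848 CPM in Xcr1 or Clec9a dendritic cells, and the cathepsin genes Ctsb (3172 CPM) and Ctsd (1507 CPM) were highest in macrophages and Ctsl (1712 CPM) in plasmacytoid dendritic cells. Wdfy4, needed for cross-presentation, was 1111 CPM in Xcr1 or Clec9a dendritic cells and 325 CPM in B cells, the next gate. Psmb5, a standard proteasome subunit, was highest in melanoma at 414 CPM, the gate lowest for its immunoproteasome counterpart Psmb8. H2-M2, a class Ib gene, was 143 CPM in Ccr7 mature dendritic cells and 4.29 in the next gate. Irf8 was 2493 CPM in plasmacytoid and 1811 CPM in Xcr1 or Clec9a dendritic cells. Irf1, an interferon-induced activator of class I genes, was 239 CPM in plasmacytoid dendritic cells and 11.6 in melanoma, where Ifngr1, the interferon-gamma receptor chain, was also lowest at 23.5 CPM.

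The genes whose log level over these 14 gates was most like the class II chains and Cd74 were Taok3 (Pearson r = 0.95), Napsa (0.94), Cd83 (0.94), Gm20513 (0.94) and Rassf4 (0.90), and Ciita was the tenth (0.89). For H2-K1, H2-D1 and B2m they were Irf1 (0.93), Icam1 (0.92), Cd47 (0.90), Clec2d (0.90) and Dtx3l (0.90). Among the class II members, H2-DMa (0.96) and Ifi30 (0.91) were closest to the class II pattern after the chains and Cd74, with Lgmn (0.26) the farthest. Calr, Canx and Pdia3 had negative values against the class I pattern (-0.65, -0.75 and -0.48). All gates come from the same library, and these correlations describe it only.

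In CD4 T cells the class I pathway was modestly lower in Tc9 than in Tc1, and the class II chains were near 0 in Tc9. The 8 heavy chains summed to 7386 CPM in Tc1 and 5921 in Tc9, so the log2 ratio was -0.32 (-0.33 to -0.31). H2-K1 was 2870 and 2426 CPM, H2-D1 2551 and 1899 CPM, and B2m 2926 and 2043 CPM, all within 1.5-fold. When ratios from 1.5-fold were counted, for genes reaching 10 CPM in either library, 9 of 23 class I members (39.1%) were lower in Tc9 and 0 were higher. Of all 8427 genes measured in this gate, 23.2% were lower and 9.3% higher. The class I median was -0.51 on the log2 scale and the median of all genes -0.12. The 9 genes were the class Ib heavy chains H2-T22 (193 and 93.1 CPM in Tc1 and Tc9) and H2-M3 (57.8 and 32.5 CPM), the transporter gene Tap1 (159 and 104 CPM), Psmb8 (598 and 343 CPM), Psmb9 (280 and 157 CPM), Psmb10 (149 and 94 CPM), Psme2 (426 and 271 CPM), Calr (228 and 130 CPM) and Pdia3 (340 and 219 CPM). All 3 immunoproteasome subunits were thus among them. Of 7 genes listed as standard proteasome and chaperones, 3 were lower as well, namely the proteasome subunits Psmb5 (148 and 89.2 CPM) and Psmb6 (154.5 and 79.5 CPM) and the cross-presentation gene Wdfy4 (11.4 and 0.665 CPM). Wdfy4 reached the minimum through Tc1 alone, and Psmb6 was named after its values were seen. In the interferon list 3 of 8 were lower, Irf8 (69.5 and 17.1 CPM), Ifnar2 (140 and 71.9 CPM) and, named after its values were seen, Ifngr2 (42.1 and 15.3 CPM). Irf1 (187 and 190 CPM) was within 1.5-fold. Nlrc5 (120 and 156 CPM), Erap1 (40.8 and 50.8 CPM) and H2-Q6 (313 and 353 CPM) were higher in Tc9 by less than 1.5-fold. The count was 5 with TMM factors or the median ratio of genes as scaling, which shifted all ratios up by 0.13 and 0.12, and 4 with the mean of per-barcode CPM or with barcodes thinned to 2000 UMIs.

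**Figure D4:**
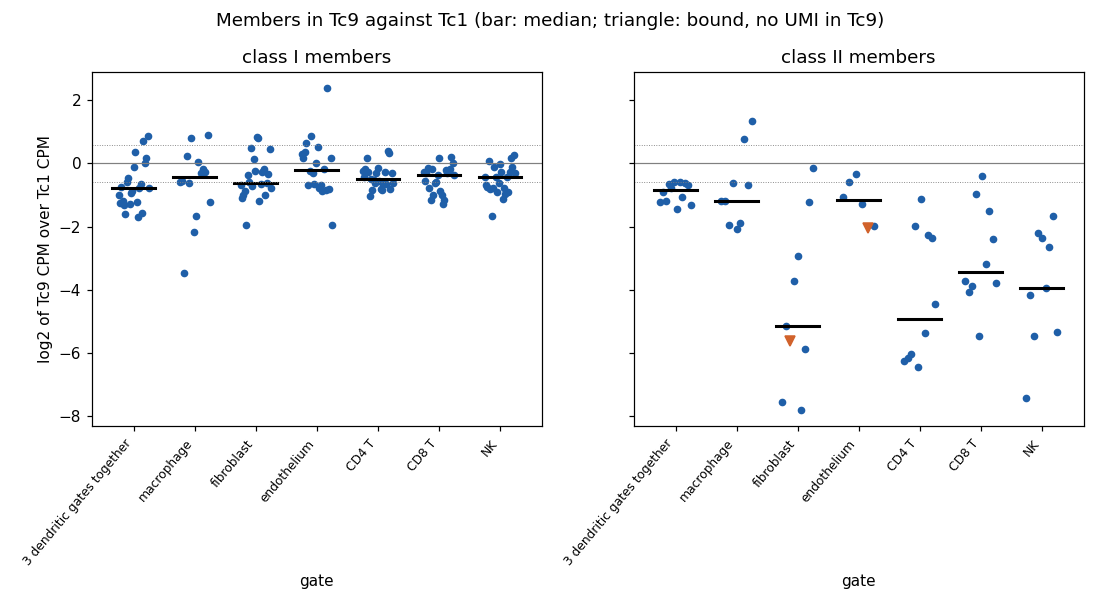
Log2 of the Tc9 level over the Tc1 level for each measured class I member (left) and class II member (right) in the 6 gates with both libraries and the 3 dendritic gates together. Bars mark medians, dotted lines 1.5-fold, and triangles bounds for members with no UMI in Tc9. Class I medians lie between -0.21 and -0.79, and class II medians between -0.84 and -5.14.

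Of the class II members measured in CD4 T cells, 10 of 10 were lower in Tc9, against 23.2% of all genes measured in this gate. Their median was -4.91 on the log2 scale. H2-Eb1, H2-DMb1, H2-Oa and Lgmn passed the minimum through Tc1 alone and so had to differ, and H2-DMb2 and H2-Ob were too low to be measured. The count and the median include the members that passed through Tc1 alone. The chains summed to 2184 CPM in Tc1 and 30.7 in Tc9, so the log2 ratio was -6.15 (-6.25 to -6.05), and Cd74 was 2352 and 57.3 CPM. Most marker lists of other cell types moved with these values. The 6 endothelium markers did not, at 79.8 CPM in Tc1, with Cldn5 at 0, and 95.5 CPM in Tc9. The 6 macrophage markers, all with UMIs in both libraries, summed to 573 CPM in Tc1 and 13.8 CPM in Tc9, the 4 haemoglobin genes to 2109 and 0.148 CPM (Hba-a1 and Hba-a2 at 0 in Tc9), and Lyz2 stood at 1240 and 5.5 CPM. The 4 markers of Cd209a dendritic cells summed to 26 CPM in Tc1, with Cd209d at 0, and 1.29 in Tc9. Of the other class II genes, Ciita was 14.8 and 0.812 CPM, and 7 of 8 further endosomal genes were lower, among them Ctsb (480 and 93.7 CPM), Ctsl (190 and 5.02 CPM) and Cst3 (794 and 128 CPM). Without barcodes with a C1q or Lyz2 UMI, which left 520 barcodes in Tc1 and 4195 in Tc9, the class II chains were 606 and 28.2 CPM and the heavy chains 8295 and 5935 CPM. That choice was added after seeing the data. Under it the class II ratio was -4.43, the heavy chain ratio -0.48, and 5 class I members were lower. The class II level that the C1q UMIs would bring along from macrophages was 327 CPM in Tc1, against 2184 measured, and 31.1 in Tc9, against 30.7 measured. C1q in this gate was limited by the gating, since T cell barcodes past the macrophage threshold were left out. C1q also misses monocyte RNA: the Tc1 monocyte gate, itself set low in C1q, had 39.0 CPM of C1q and 4995 CPM of class II chains. The source of the other class II UMIs was not tested.

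Marker-defined subsets of CD4 T cells differed in class I level. CD4 T cells with a Foxp3 UMI, which marks regulatory T cells, had 8065 CPM of heavy chains in Tc1 (175 barcodes) and 7196 CPM in Tc9 (617 barcodes). Those with at least 3 UMIs of the interferon-induced genes Ifit1, Ifit3 and Isg15 had 6527 CPM in Tc1 (174 barcodes) and 7335 CPM in Tc9 (101 barcodes), and were the subset with the higher level in Tc9. In the same Tc1 subset class II chains were 5178 CPM and Lyz2 2477 CPM, against 5.87 and 1.47 CPM in Tc9. Those with a UMI of Il4, Il5 or Il13 had 8397 and 5962 CPM (147 and 692 barcodes). Of these 3 subsets the libraries lay furthest apart in the last.

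In CD8 T cells the heavy chains were 6642 CPM in Tc1 and 4925 in Tc9, for a log2 ratio of -0.43 (-0.45 to -0.41). Here 9 of 23 class I members were lower, against 24.7% of all genes measured, and 0 were higher (14.6% of all genes). Psmb9 (346 and 142 CPM), H2-T22 (193 and 86.8 CPM) and Psmb10 (191 and 86.5 CPM) were the furthest apart. Class II chains were 1333 and 91.3 CPM, and 9 of 10 class II members were lower, H2-Oa being the exception at 14.3 and 10.9 CPM. H2-DMb1 and Lgmn reached the minimum through Tc1 alone and so had to differ. Lyz2 was 718 and 18.3 CPM in the same gates. In NK cells (50 and 51 barcodes) the heavy chains were 8255 and 5609 CPM, a ratio of -0.56 (-0.64 to -0.48). In this gate 11 of 23 class I members were lower (23.7% of all genes) and 0 higher (16.8%), among them H2-T22 (185 and 58.8 CPM) and Psmb8 (584 and 266 CPM). All 9 class II members measured in NK cells were lower, but most of them reached the minimum through Tc1 alone and so had to differ. The chains were 1195 and 32.9 CPM, and 1 barcode held 68.8% of the Tc1 UMIs. The 6 macrophage markers of that gate summed to 558 CPM in Tc1 and 4.7 in Tc9, where C1qa, C1qb, C1qc, Mrc1 and Adgre1 were at 0, and their part in the result was not tested.

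In fibroblasts (41 barcodes in Tc1 and 69 in Tc9) the heavy chains stood at 2951 CPM in Tc1 and 1627 in Tc9, for a log2 ratio of -0.86 (-0.96 to -0.75). In the same gate 12 of 22 class I members measured (54.5%) were lower and 2 were higher, against 21% and 35.3% of all genes, and the class I median was -0.61 on the log2 scale where the median of all genes was 0.23. H2-D1 was 1279 and 604 CPM, H2-Q7 109 and 28.5 CPM, Psmb8 102 and 44.4 CPM and Psme2 199 and 99.8 CPM. Tapbp, which encodes tapasin, was higher at 107 and 189 CPM, as was Tapbpl (13.7 and 23.8 CPM). Tapbpl reached the minimum through Tc9 alone, and Erap1 (17.1 and 11.1 CPM), among the 12 lower, through Tc1 alone. The filter therefore favoured the calls of Tapbpl and Erap1. The class II chains were 977 and 14.3 CPM and Cd74 711 and 3.17 CPM, with 8 of 9 class II members lower. Most of the 8, among them H2-Aa, H2-Eb1 and Cd74, reached the minimum through Tc1 alone and so had to differ. H2-Eb1 had 206 UMIs in Tc1 and none in Tc9, which makes it at least 49.3-fold lower against a floor of 3 counts. As given above, 83.9% of the Tc1 class II UMIs of this gate lay in 3 barcodes. The 6 macrophage markers summed to 149 CPM in Tc1 and 147 CPM in Tc9 here. Of these, C1qa, C1qb and C1qc together were 42.1 CPM in Tc1 and 4.75 in Tc9, and Lyz2 was 404 and 3.17 CPM. The part of RNA from other cells in the class II values was not tested. Lgmn, at 121 and 108 CPM, was the class II member that stayed within 1.5-fold.

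Endothelium (39 and 22 barcodes) was the gate where class I heavy chains were not lower in Tc9, with 4807 CPM in Tc1 and 5515 in Tc9, for a log2 ratio of 0.20 (0.09 to 0.31). Of 20 class I members measured, 8 were lower and 3 higher, against 26.6% and 36.1% of all genes. The higher ones were H2-Q6 (202 and 314 CPM), H2-T23 (109 and 200 CPM) and Nlrc5 (16.6 and 86.8 CPM, from 14 and 13 UMIs). Nlrc5 reached the minimum through Tc9 alone, so the filter favoured its higher call. Psmb8, Psmb9, Psmb10 and Psme2 were lower here too, as in NK cells. Class II chains were 352 and 220 CPM, a ratio of -0.68 (-1.24 to -0.15), with 5 of 6 members lower. Of these, H2-Aa, Ctss and Lgmn reached the minimum through Tc1 alone, so the filter favoured a lower call for them. The 6 macrophage markers summed to 348 CPM in Tc1 and 154 CPM in Tc9, where C1qa, C1qb, C1qc, Mrc1 and Adgre1 were at 0, and Lyz2 was 326 and 0 CPM. The class II level scaled from C1q was 372 CPM in Tc1, above the 352 measured. With it subtracted the remainder in Tc1 was below 0, so the value of 2.87 obtained that way is no estimate of a ratio. In Tc9 1 of the 22 barcodes held 69.7% of the class II chain UMIs.

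In macrophages the Tc9 library offered only 36 barcodes with a median of 1692 UMIs, so 14 class I members and 9 class II members could be measured. Class II chains were 9064 CPM in Tc1 and 3494 in Tc9, for a log2 ratio of -1.38 (-1.57 to -1.19), and Cd74 was 8897 and 2423 CPM. In this gate 7 of 9 class II members were lower and 2 were higher, against 27.9% and 41.1% of all genes. The 2 higher members were the lysosomal proteases Ctss (1906 and 3256 CPM) and Lgmn (1300 and 3301 CPM). Of the class I members 6 were lower, including Psmb8 (400 and 89.2 CPM, the latter from 6 UMIs), and Tapbp and Canx were higher. H2-Q7, Psmb8, Psmb9 and the class II member H2-DMb1 reached the minimum through Tc1 alone, and Tapbp through Tc9 alone. The filter therefore favoured the calls of these members. The 4 markers of Cd209a dendritic cells summed to 97.7 CPM in Tc1 macrophages and 1085 CPM in Tc9 macrophages, with Cd209d at 0 in the latter, and their part in these differences was not tested. As 33 of the 36 Tc9 macrophages had no UMI of Cxcl9, Cxcl10 or Mmp12, the subsets could not be compared, and the 1465 Tc1 macrophages of the same kind had 9362 CPM of class II chains against 2843.

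In the 3 dendritic gates together (119 barcodes in Tc1 and 34 in Tc9) both pathways were lower in Tc9 by similar factors. Class II chains were 25515 and 11839 CPM, a log2 ratio of -1.11 (-1.16 to -1.05), and heavy chains 5428 and 2568 CPM, a ratio of -1.08 (-1.20 to -0.96). All 12 class II members were lower, as were 16 of 23 class I members, against 18.4% of all genes, and 2 class I members were higher, against 36.6%. Among the lower ones, H2-Oa and H2-T22 reached the minimum through Tc1 alone. All 5 immunoproteasome and activator genes were among the lower ones, such as Psmb9 (510 and 157 CPM) and Psme2 (825 and 275 CPM). Canx (171 and 310 CPM) and Nlrc5 (69.5 and 113 CPM) were higher. Ciita was 195 CPM in Tc1 and 174 CPM in Tc9, within 1.5-fold, and thinned barcodes with a Ciita UMI made up 28.8% and 27.6%. The ratio of class II to class I was 2.23 (2.20 to 2.27) in Tc1 and 2.20 (2.08 to 2.34) in Tc9, a difference within counting error. The mix of subsets differed between the libraries, and Xcr1 or Clec9a barcodes were 23 of 119 in Tc1 and 3 of 34 in Tc9.

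Some class II members had T cell levels that the class II chains did not share. Per 100 Cd74 UMIs, the dendritic gates of Tc9 had 4.81 H2-DMa, 6.84 Ctss, 12.6 Ifi30, 0.207 H2-Oa and 0.456 H2-Ob UMIs, and those of Tc1 had similar values of 3.6, 5.06, 9.69, 0.271 and 0.328. In Tc9 CD4 T cells the same values were 50, 161, 95.2, 9.28 and 4.77. The 6 macrophage markers summed to 13.8 CPM in that gate and the 6 monocyte markers to 384 CPM, while Lyz2 stood at 5.5 CPM. H2-DMb1, the partner of H2-DMa, was at 1.74 per 100 Cd74 UMIs there, below the 4.02 of the dendritic gates. In CPM, Tc9 CD4 T cells had 92.1 of Ctss, 54.6 of Ifi30 and 28.7 of H2-DMa, against 0.997 of H2-DMb1. In Tc1 CD4 T cells the values per 100 Cd74 UMIs were 4.84 H2-DMa, 12 Ifi30 and 0.497 H2-Oa. These were nearer to the dendritic values than those of Tc9 CD4 T cells. For H2-DMa and Ifi30, Tc1 monocytes (4.43 and 11.8) and macrophages (3.31 and 10.2) were also close, while their H2-Oa was 0.011 and 0.0197. Lgmn (8.03) and Ctss (19) of Tc1 CD4 T cells were above the dendritic values of 0.698 and 5.06, and stood at 14.6 and 21.4 in Tc1 macrophages. In Tc9 CD4 T cells with a Foxp3 UMI, Cd74 was 175 CPM and the class II chains 45.3 CPM.

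**Figure D5:**
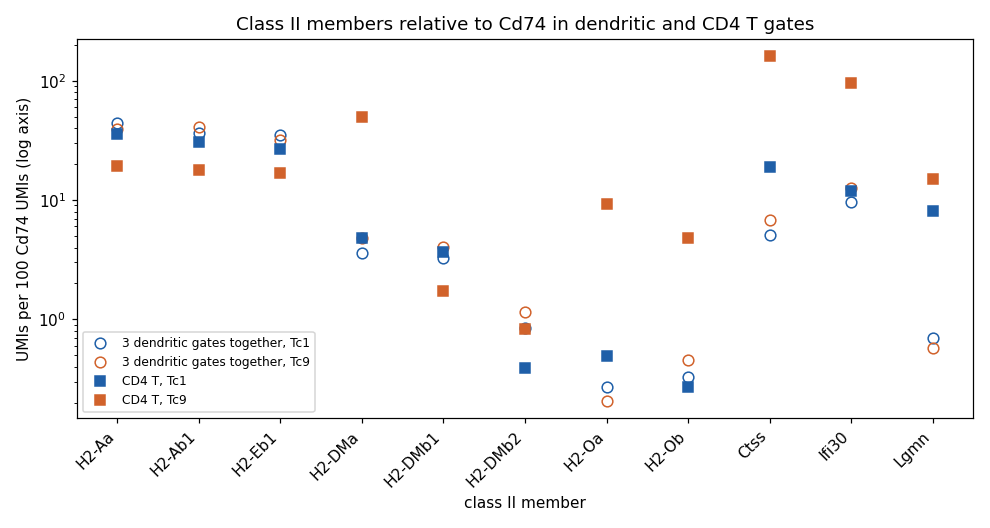
UMIs of each class II member per 100 Cd74 UMIs (log axis) in the 3 dendritic gates together (open circles) and in CD4 T cells (squares), with Tc1 in blue and Tc9 in orange. In Tc9 CD4 T cells the chains lie below the dendritic values and H2-DMa, H2-Oa, H2-Ob, Ctss, Ifi30 and Lgmn lie above them.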

How the data were processed

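Counts of UMIs per gene and barcode were deposited by the authors as filtered matrices, made with Cell Ranger 7.0.0 against mm10, per the submitters' processing notes. Receptor contigs deposited by the authors served only to filter barcodes. Barcodes under 500 genes or over 10% mitochondrial UMIs were dropped, and the others were gated on marker CPM, with thresholds set with the data in hand. For example, T cells needed 500 CPM of T cell markers, macrophages 1000 CPM of C1q genes, and melanoma cells 3000 CPM of pigment genes, while NK cells had no Trac, Cd4 or Cd8 UMI. No doublet caller was run, and barcodes of more than 1 lineage were left out. UMIs were summed per gate and library. A ratio was counted from 1.5-fold, with at least 10 CPM and 10 UMIs expected in the smaller sum. A gene at 0 entered medians at the floor of 3 counts. T cell receptor and immunoglobulin segment genes were left out of the background. Named genes were the 35 members, up to 4 genes per further pathway list by highest level, and the 10 genes most like each class by Pearson r of log2(CPM + 1). Members, lists and gates were chosen with earlier results of these data known. Tools were Python with numpy and scipy, and edgeR for the TMM factors only. Some items of the fixed lists are not reported here.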

Additional observations from a re-analysis of the deposited data

Results flagged for a closer look

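Members whose ratio was past 1.5-fold in opposite directions in 2 gates were taken up here, and none of these differences between gates was tested. Each gate is 1 library per group. H2-Q6 had a log2 ratio of Tc9 over Tc1 of 0.63 in endothelium and -0.87 in fibroblasts, and shares reads with near-identical copies. H2-T23 had 0.87 in endothelium and -0.78 in NK cells. Tapbpl, a relative of tapasin, had 0.80 in fibroblasts (12 and 15 UMIs) and -0.89 in CD8 T cells. Ctss had 0.77 in macrophages and -5.88 in fibroblasts, where it had 1 UMI in Tc9. Lgmn had 1.34 in macrophages and -5.35 in NK cells, also with 1 UMI in Tc9.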

How the results depend on the processing

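No paired analysis was possible because each group had 1 RNA library. The count of 6 gates with class II chains above class I heavy chains was 5 with doubled marker thresholds, which left the Xcr1 or Clec9a dendritic gate with 18 barcodes and so out of the count, and stayed 6 in the other alternatives run for it. In CD4 T cells the main log2 ratios of Tc9 over Tc1 were -0.32 for heavy chains and -6.15 for class II chains. They were -0.38 and -6.41 with doubled thresholds, -0.29 and -5.31 with barcodes of more than 1 lineage kept, -0.43 and -5.40 with the mean of per-barcode CPM, and -0.35 and -10.69 with the expected free RNA subtracted. The last is no estimate, since 31.1 CPM of class II were expected in Tc9 against 30.7 measured and the remainder is near 0. They were -0.19 and -6.02 with TMM factors and -0.20 and -6.03 with the median ratio of genes. With a productive TRB contig required, class II chains were at -7.11. Chosen after seeing the data, they were -0.48 and -4.43 without barcodes with C1q or Lyz2 UMIs, -0.43 and -5.30 when thinned to 2000 UMIs, and heavy chains were at -0.35 without barcodes with a haemoglobin UMI. The 9 class I members lower in Tc9 became 4 with the mean of per-barcode CPM, 5 with TMM factors, 5 with the median ratio of genes, 1 at a fold of 2, 5 without C1q or Lyz2 barcodes and 4 when thinned, and 9 or 10 otherwise. No alternative turned a direction in CD4 T cells. For class II chains in endothelium the value went from -0.68 to 2.87 with free RNA subtracted. This 2.87 is no estimate either, since the expected 372 CPM in Tc1 was more than the 352 measured. Of 396 alternatives over single members in CD4 T cells, 239 stayed within the counting interval of the main value and 157 moved, with 0 reversed. Gates with few barcodes and UMIs, above all Tc9 macrophages, endothelium and dendritic cells, cannot show small differences, and the intervals treat UMIs of 1 barcode as independent and are too narrow where few barcodes hold most of them.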

Other observations

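H2-Q10, a class Ib gene outside the 35 members, was 294 CPM in the neutrophil gate of Tc1, from 80 UMIs in 37 of 77 barcodes with at most 7 in any of them, and 13.7 CPM in fibroblasts, the next highest gate. In the 3 dendritic gates together Cst3 was 13722 CPM in Tc1 and 3863 CPM in Tc9, whereas Wdfy4 was 325 and 602 CPM.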
